A study of Homo sapiens with 30 samples.

Results

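SK-N-BE(2)c is an established human neuroblastoma line, and the comparison described here set its 3 libraries from cells transfected with the antisense oligonucleotide (ASO) called ASO10 against its 3 libraries from cells transfected with a negative control ASO, called NCA. These 6 libraries were chosen by line and ASO from the 30 RNA sequencing libraries of the series, which form 9 groups over this line, IMR32 and NGP. ASO10 is one of the ASOs directed at NESPR, a long non-coding RNA that the series places in adrenergic neuroblastoma cells and links to stress and cell death, so the comparison asks how expression differs when NESPR is targeted. In each group used here the cells were transfected at 100 nM by lipofection: SK-N-BE(2)c with ASO10, with NCA and with ASO2, a further NESPR-directed ASO, and NGP with ASO10 and with NCA, each in 3 libraries. The time from transfection to harvest and the ASO sequences are not given in the sources used here, and the labels do not say whether the replicates were separate cultures, so the p-values measure only the spread between these libraries. The column of control replicate 1 is spelled NCA and those of replicates 2 and 3 NCA2. The titles place all 3 in one control group and the design text names 1 negative control ASO, and what the spelling marks is not given.

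An ASO of this kind pairs with its RNA target inside the cell, where RNase H can cleave the RNA strand of the hybrid. Neuroblastoma arises from the sympathoadrenal lineage, and its adrenergic state is held by a circuit of transcription factors such as HAND2 and PHOX2A, while a mesenchymal state expresses genes such as VIM and PRRX1. The integrated stress response lowers general translation, raises the transcription factor ATF4 and its partner CHOP (DDIT3), and through them genes of amino acid supply.

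The values were normalized counts, that is, gene counts divided by 1 size factor per library. Recovered reads ran from 11905897 to 14758934 per library, and genes with at least 1 read numbered 19939 to 20327 with NCA and 21518 to 21815 with ASO10, so that every ASO10 library held more detected genes than any NCA library. The table held 57905 genes. A mean of at least 10 over the 6 libraries was required, which left 13684 for testing and 44221 below the filter, with means of 10.006 and 9.998 just inside and just outside it. In the test used throughout, limma on log2(normalized count + 1), calls needed an adjusted p (Benjamini-Hochberg) under 0.05. The adrenergic state was checked against markers: 12 of 13 adrenergic markers were tested, with HAND2 at 5913 ± 170.2 (SD, n = 3) and PHOX2A at 3227 ± 273 with NCA, and INSM1 was the exception. Defining markers of endothelial cells, Schwann cell precursors and immune cells were mostly at or near 0. None of 5 endothelial markers passed the filter, SOX10, FABP7 and CDH19 of the Schwann cell precursors did not, and PTPRC, CD3E, CD68 and LYZ of immune cells did not. The summed immune markers were at 28.3 to 31.3 with NCA and at 53 to 57.3 with ASO10, the summed Schwann markers at 50.2 to 65.5 and 70.5 to 79.8, and the summed endothelial markers at 2.02 to 5.78 and 7.16 to 12.9. The fibroblast markers DCN, LUM and PDGFRB were not near 0, and the summed fibroblast markers, of which 3 of 7 were tested and 1 was lower, stood at 1125 to 1185 and 896 to 1089. Their part in the results was not tested. In bulk RNA, fewer cells of a type and less RNA per cell cannot be told apart. The level of NESPR itself was not analysed here, so no check of its knockdown is given.

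Genes were divided by their mean in the 3 NCA libraries alone: well expressed from 100 upwards (9870 genes), low from 10 to under 100 (3289 genes) and near 0 under 10 (525 genes). Among well expressed genes, more transcripts were lower than higher with ASO10, and large falls outnumbered large rises. In this class 3666 genes (37.1%) were lower and 2712 (27.5%) higher with ASO10, with a median log2 fold change of -0.06. Of these, 406 (4.11%) were lower and 116 (1.18%) higher by a log2 fold change of at least 1, and the groups of 69.6% of the class did not overlap. The low genes split the other way, with 693 higher (21.1%) and 552 lower (16.8%), although the filter limits falls at the lower edge of this class. Over all tested genes 8050 were called (58.8%), 3832 higher (28%) and 4218 lower (30.8%), and the groups did not overlap for 64.7%. Of the higher calls 427 were near-0 genes (81.3% of that class), which the filter lets pass only when they are higher with ASO10. Over the 13159 other genes 3405 were higher (25.9%) and 4218 lower (32.1%). The balance depended on the tool: over the same 13159 genes edgeR's quasi-likelihood test on the recovered reads called 3693 higher and 4034 lower, and DESeq2 called 3664 and 3643. With the near-0 genes counted too these became 4137 and 4034, and 4079 and 3643.

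**Figure D1:**
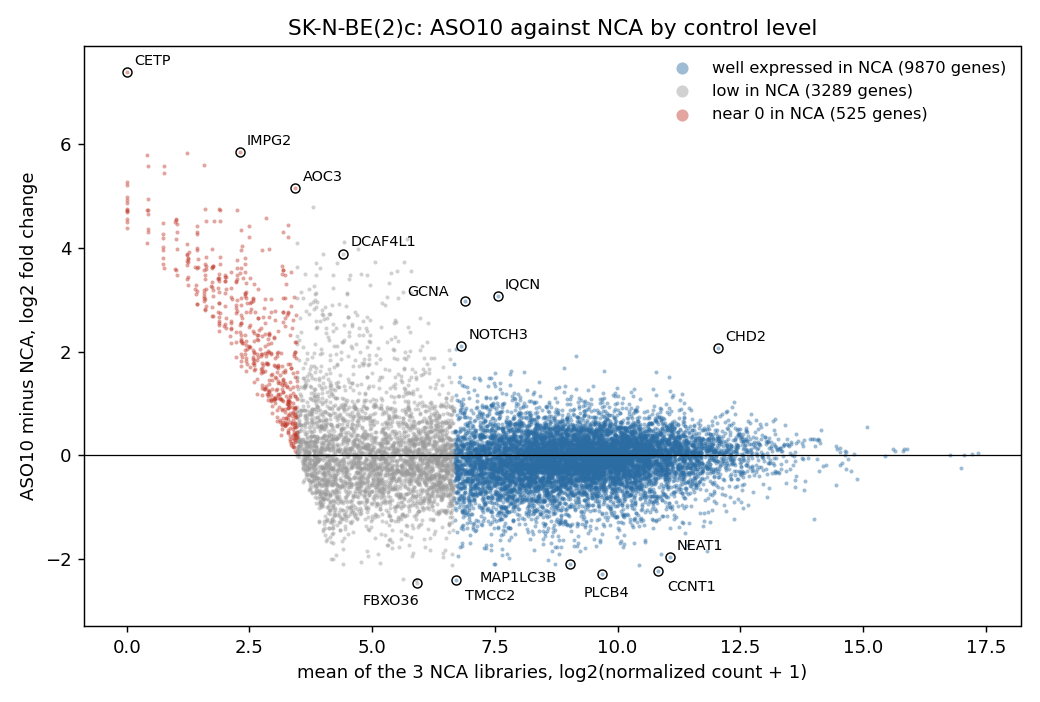
The mean of the 3 NCA libraries, as log2(normalized count + 1), is plotted against the log2 fold change of ASO10 minus NCA for the 13684 tested genes, one point per gene, coloured by control class. Well expressed genes form a band around 0 with few points beyond 2 on either side, such as IQCN at 3.08 and TMCC2 at -2.40, while the near-0 genes are bounded from below by the filter on the mean of both groups.

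The 12 largest falls among well expressed genes included CCNT1, MAP1LC3B and NEAT1. CCNT1 encodes cyclin T1, the partner of the kinase CDK9 in the elongation factor P-TEFb. Its normalized counts were 1733, 1851 and 1839.9 with NCA and 451, 299.7 and 421 with ASO10. The highest ASO10 library stood far below the lowest control, and the log2 fold change was -2.23 (standard error 0.1, limma adjusted p 1.12e-16). MAP1LC3B encodes LC3B, the ATG8-family protein that is lipidated onto autophagosomes. It stood at 502, 556 and 509.8 with NCA and at 116, 135 and 114 with ASO10, again without overlap (log2 fold change -2.09, standard error 0.09, limma adjusted p 5.78e-17). NEAT1, the long non-coding RNA that scaffolds paraspeckles, read 1886, 2355 and 2158 with NCA and 544, 526 and 565 with ASO10. All 3 ASO10 values were low and close together (log2 fold change -1.96, limma adjusted p 7.78e-18).

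PLCB4, ESRRG and TMCC2 were among the same falls. PLCB4, a phospholipase C beta that acts below G protein-coupled receptors, had 796, 807 and 847 with NCA and 207, 123 and 179.8 with ASO10 (log2 fold change -2.29, limma adjusted p 8.4e-15). ESRRG, an orphan nuclear receptor, had 1430.5, 1311 and 1395 with NCA and 375, 267 and 321 with ASO10 (log2 fold change -2.11, limma adjusted p 4.08e-17). In both genes ASO10 replicate 2 was the lowest library, and the groups lay far apart. TMCC2, which had the largest fall of the class, went from 120.3, 109 and 81 to 25.1, 17.4 and 14.6 (log2 fold change -2.40, standard error 0.24), with no overlap at a level where 1 library holds few reads. CXXC4, an inhibitor of Wnt signalling, SLF1, a localization factor of the SMC5-SMC6 complex, TMTC2, an O-mannosyltransferase of the endoplasmic reticulum (ER), PIGN, an enzyme of GPI anchor synthesis, and the zinc finger genes ZXDB and ZNF800 completed the 12. Their log2 fold changes ran from -2.10 for ZXDB to -1.94 for PIGN. ZXDB has a near-identical copy, ZXDA, so its count is uncertain.

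The 12 largest rises were led by IQCN and GCNA. IQCN, which encodes an IQ-motif protein, had 193, 214 and 156 with NCA and 1571, 1707 and 1462 with ASO10. GCNA, a germ cell nuclear protein with a peptidase domain, had 127, 124 and 100.2 with NCA and 823, 1075 and 880.1 with ASO10. The log2 fold changes were 3.08 and 2.97 (limma adjusted p 1.12e-18 and 8.23e-18), and neither gene had overlapping groups. CHD2, a chromatin remodelling helicase and the most abundant of the 12, had 4054, 4660 and 4032 with NCA and 16219, 19579 and 17814 with ASO10 (log2 fold change 2.07, standard error 0.06, limma adjusted p 1.88e-19). Every ASO10 library held several times the reads of every control.

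NOTCH3, a receptor of the Notch pathway, had 105, 139 and 89.6 with NCA and 451, 553 and 428 with ASO10 (log2 fold change 2.11, limma adjusted p 5.47e-09). PTPRH, a receptor-type tyrosine phosphatase, had 589, 624 and 482 with NCA and 1856, 2436 and 2071 with ASO10 (log2 fold change 1.91, limma adjusted p 7.99e-16). In both genes ASO10 replicate 2 was the highest library. GPT2, a mitochondrial alanine transaminase, GDF15, a secreted stress cytokine, and TRIB3, a pseudokinase induced by ATF4 and CHOP, rose by 1.62, 1.61 and 1.60 on the log2 scale. The others were CEL at 2.05, AGER at 1.76, AKNA at 1.69 and CUL9 at 1.62, all past the threshold with groups that did not overlap. CEL, a lipase gene, has a nearby pseudogene copy and is uncertain for that reason.

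**Figure D2:**
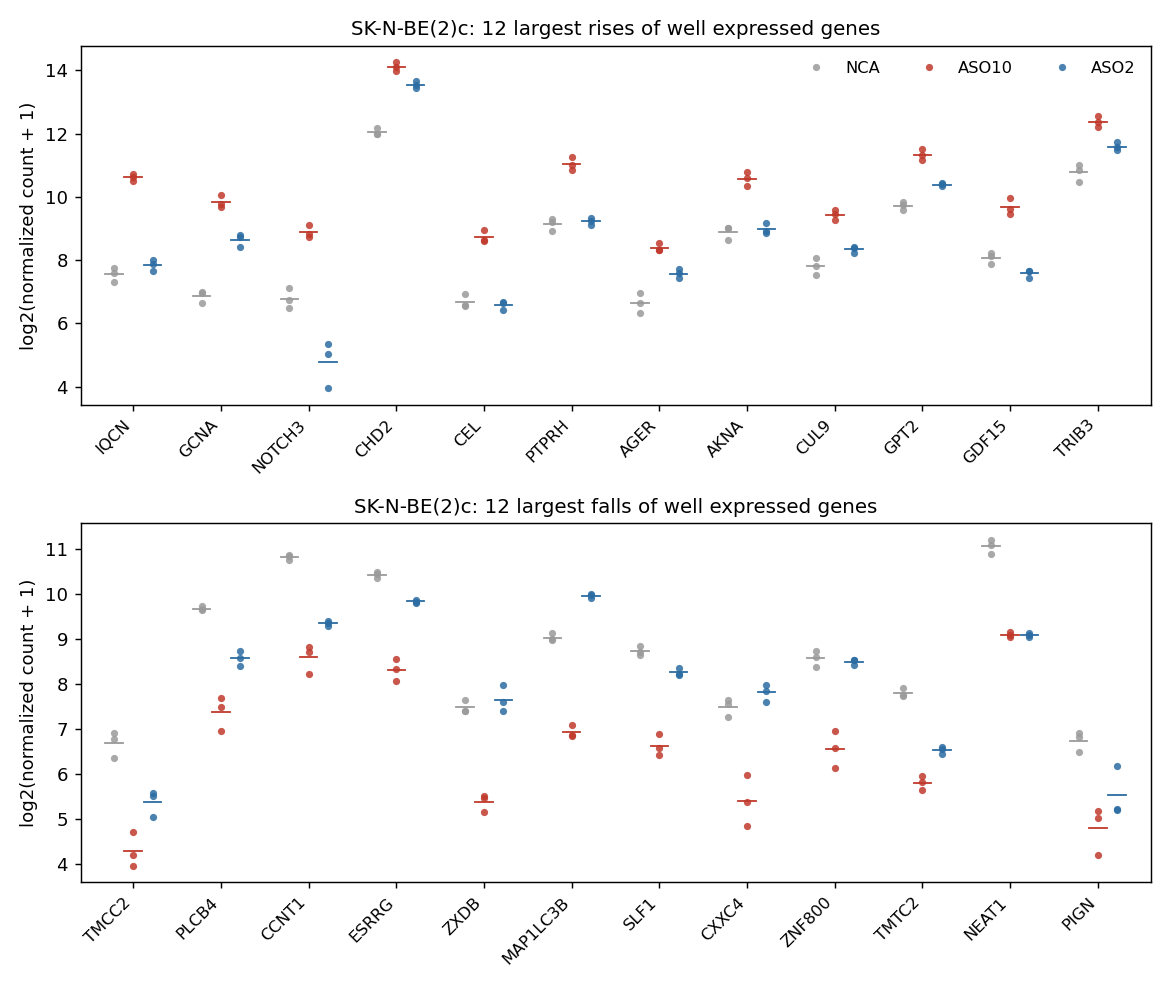
Normalized counts, as log2(normalized count + 1), are shown for the 12 largest rises (top) and the 12 largest falls (bottom) of well expressed genes, one point per library and a bar at the mean of each group of 3. Red ASO10 points lie above the grey NCA points for each rise and below them for each fall, and blue ASO2 points take varied positions, from below the controls for NOTCH3 to the level of ASO10 for NEAT1.

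The same genes were read beside ASO2. The comparisons of ASO10 with ASO2 and with NCA share the ASO10 libraries on which the 24 genes were picked, so the values are given side by side. MAP1LC3B stood at 1001, 1022 and 957 with ASO2, above the controls, whereas ASO10 lay below them (ASO10 minus ASO2 -3.02, limma adjusted p 1.86e-20). NOTCH3 stood at 39.8, 31.7 and 14.4 with ASO2, below the controls, whereas ASO10 lay above them (4.12, limma adjusted p 3.55e-15). ZXDB, CXXC4 and ZNF800 had ASO2 values among or above those of NCA. ZXDB, for example, read 251, 192 and 167 with ASO2 and 167, 199 and 168 with NCA. NEAT1 stood at 539, 562 and 525 with ASO2, the same range as with ASO10 (difference 0.01, limma adjusted p 0.938). CCNT1 stood at 657, 624 and 669 with ASO2, lower than every control and higher than every ASO10 library (ASO10 minus ASO2 -0.76, limma adjusted p 8.91e-08). Over all genes 8954 differed between the ASOs (65.4%), 4297 higher with ASO10 (31.4%, 388 of them near-0 genes) and 4657 lower (34%). With every library rescaled to the same total this split turned to 5150 higher and 3653 lower.

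The near-0 genes were a separate set. Their direction is fixed by the filter, since a gene under 10 in NCA passes it only when ASO10 is higher, so they are described with no test and their calls support nothing here. The 525 genes had a median of 23.4 normalized counts with ASO10, and 16 of them reached 100. In 446 every ASO10 library was above every NCA library (85%, beside 64.7% without overlap in either direction over all tested genes). By annotation 320 were protein coding, 53 antisense, 48 lincRNA and 45 processed pseudogenes, and 20 were not in GENCODE release 29. In 13 genes no NCA library held a read, and in 86 each NCA library held at most 3 reads. Whether counting used strand is not stated, so reads of an antisense gene and of its partner cannot be told apart.

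Several of the 10 near-0 genes with the highest ASO10 mean are known from other tissues. AOC3, an amine oxidase of vessel walls and fat, had 10.5, 15.1 and 3.86 with NCA and 312, 412 and 311 with ASO10. IMPG2, a proteoglycan of the photoreceptor matrix, had 2.09, 1.01 and 8.67 with NCA and 181, 290.5 and 217 with ASO10. CETP, a plasma protein that transfers cholesteryl esters between lipoproteins, had 0, 0 and 0 with NCA and 137, 211 and 162 with ASO10. Against a floor of 3 reads per control library CETP was at least 56.2-fold higher. In all 3 genes the lowest ASO10 library stood far above the highest control.

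SLC5A11, a sodium-coupled inositol transporter, had 11.5, 5.04 and 7.71 with NCA and 172, 217 and 136 with ASO10. ST14, the serine protease matriptase, had 9.42, 5.04 and 3.86 with NCA and 157, 193 and 132 with ASO10. LGALS4, a galectin of the gut, had 12.6, 9.07 and 5.78 with NCA and 123, 102 and 111 with ASO10. In each the ASO10 libraries stood together, well over the controls. TOGARAM2, SCARF1, AGBL2 and EFCAB8 made up the rest of the 10, with ASO10 means from 113 for EFCAB8 to 211 for TOGARAM2 and NCA means from 1.33 to 8.75.

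ASO2 gave other levels of these genes. SLC5A11 held 5.52, 0 and 3.6 with ASO2, in or below the range of the controls, and EFCAB8 held 0, 2.72 and 4.8. AOC3 held 150.3, 131 and 163 with ASO2, between its values with NCA and ASO10, and IMPG2 held 21, 29.9 and 40.8. AOC2, the neighbouring amine oxidase gene, low rather than near 0 and named after its values were seen, had 19.9, 31.3 and 24.1 with NCA, 373, 474 and 383 with ASO10 and 351, 287 and 287 with ASO2.

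**Figure D3:**
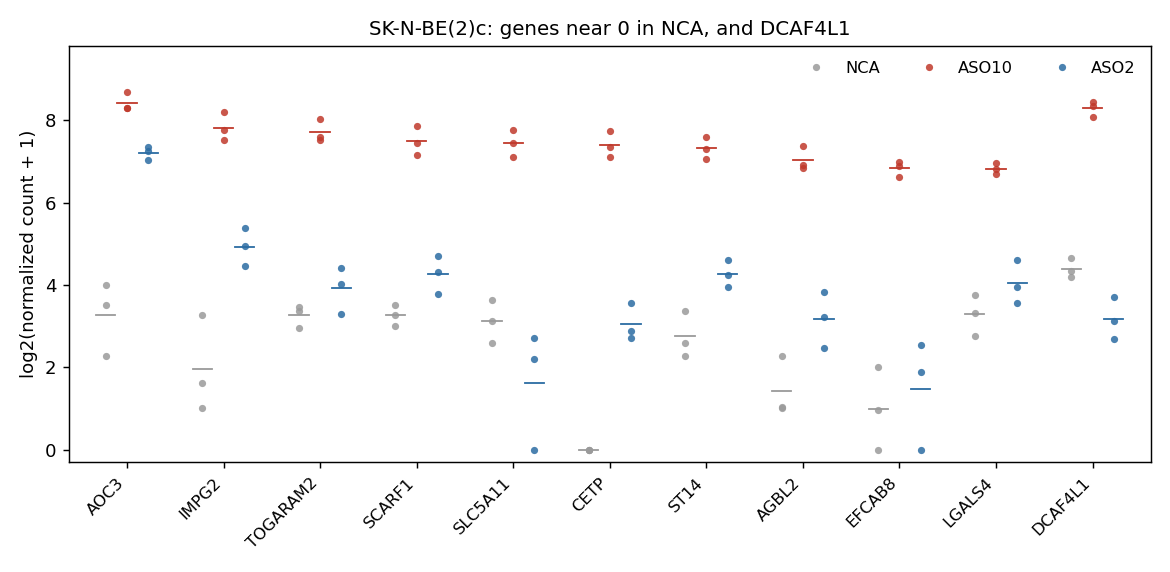
Each library's value, as log2(normalized count + 1), is shown for the 10 near-0 genes with the highest ASO10 mean and for DCAF4L1, with a bar at the mean of each group of 3. The ASO10 points lie above all NCA points in each gene, CETP lies at 0 in all 3 NCA libraries, and ASO2 overlaps the controls for SLC5A11 and EFCAB8, lies below them for DCAF4L1 and comes nearest to ASO10 for AOC3.

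The near-0 genes were also described by the strand of their upstream neighbour. For each gene the nearest well expressed gene lying wholly on its 5′ side was taken from GENCODE release 29, using gene order and strand only. That neighbour lay on the same strand for 417 of 505 near-0 genes (82.6%), against 1702 of 3078 low genes (55.3%) and 5205 of 9745 well expressed genes (53.4%). Among the 433 near-0 genes with a neighbour in which every ASO10 library was above every NCA library, the share was 377 (87.1%). These shares are a description, since genes of one region share neighbours. Near-0 genes also passed the filter only by being higher with ASO10, and the 433 were picked on that again. The low and well expressed genes were not picked in this way, so the shares cannot be tied to a control level near 0 alone. The neighbours of near-0 genes had a median log2 fold change of 0.04, with 149 higher and 123 lower.

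All 10 named near-0 genes had a same-strand neighbour, and the neighbours themselves moved in no common direction. CETP lies after HERPUD1, a gene of ER-associated degradation, which had 932, 938 and 836 with NCA and 1674, 1833 and 1667 with ASO10 (log2 fold change 0.94, limma adjusted p 9.84e-13). SLC5A11 lies after TNRC6A, a partner of Argonaute in miRNA silencing (0.92, limma adjusted p 1.14e-13), and AGBL2 after FNBP4 (0.87, limma adjusted p 5.82e-12). SCARF1 lies after the splicing factor gene PRPF8 (0.33) and LGALS4 after ECH1 (0.25), both of which rose. EFCAB8 lies after MAPRE1 (-0.34), IMPG2 after SENP7 (-0.43) and AOC3 after PSME3 (-0.16), all of which fell. The neighbours of TOGARAM2 (WDR43, 0.04) and ST14 (APLP2, 0.08) did not pass the test. DCAF4L1, a low gene named after its values were seen, had 24.1, 19.2 and 17.3 with NCA, 267, 325 and 345 with ASO10 and 7.73, 5.44 and 12 with ASO2. Its neighbour TMEM33 fell from 1508, 1509 and 1527 to 1003, 784 and 898 (log2 fold change -0.77, limma adjusted p 6.81e-10). The long non-coding RNA LINC00682, likewise chosen after its values were seen, had 152, 135 and 157 with NCA and 83.7, 86.9 and 92.1 with ASO10 (-0.75, limma adjusted p 7.31e-05).

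NGP, whose libraries were not used to choose these genes, was read for the same 525. Every NGP ASO10 library was above every NGP NCA library in 396 of them (75.4%), and below in 4 (0.762%). Over all 13684 tested genes the shares in NGP were 28.4% and 29.4%. The median level of the 525 in NGP was 7.57 with NCA and 31.2 with ASO10. AGBL2, for example, had means of 33.1 and 256 in NGP, and CETP 3.09 and 118.

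Genomic span moved with the change among well expressed genes. With 9763 well expressed genes placed in 10 bins of like size by GENCODE span, 68% of the bin of longest genes (977 genes of 159 to 1743 kb) were lower and 11% higher with ASO10, with a median log2 fold change of -0.44. In the bin of shortest genes (0.075 to 6.04 kb), 24% were lower and 28.9% higher, with a median of 0.03. From bin 6 onwards the medians were -0.03, -0.09, -0.17, -0.21 and -0.44, and Spearman's rho over 9763 genes was -0.279, given as a description because genes are not independent. The same longest genes had a median of -0.35 in NGP. With every library rescaled to the same total it was -0.46 in SK-N-BE(2)c. The median of ASO10 minus ASO2 in SK-N-BE(2)c was 0.10 for the longest genes and -0.14 for the shortest. Relative to short genes, the longest genes thus stood lower with ASO2 than with ASO10.

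The integrated stress response had the highest median change of the 23 gene lists described. Of 22 listed genes of the ATF4-CHOP arm 21 were tested, and 20 were higher and 1 lower, with a median log2 fold change of 0.80. None of them was near 0 with NCA, and over all tested genes outside that class the median was -0.05 and 25.9% were higher. ATF4, the transcription factor itself, had 4579, 5099 and 4651 with NCA and 8097, 9009 and 8792 with ASO10 (log2 fold change 0.85, limma adjusted p 1.1e-13). DDIT3, which encodes CHOP, had 1139.5, 1269 and 1187 with NCA and 1786, 2386 and 2139 with ASO10 (0.80, limma adjusted p 1e-09). Both sets of ASO10 libraries lay above all controls. Of its feedback arm, PPP1R15A, which encodes the phosphatase subunit GADD34, rose by 1.29 and TRIB3 by 1.60 on the log2 scale, and DDIT4, an inhibitor of mTORC1, rose by 1.20. ASNS, the asparagine synthetase, had 1695, 2086 and 1899.6 with NCA and 3339.5, 3576 and 3554 with ASO10 (0.89, limma adjusted p 1.6e-12), and CHAC1, which degrades glutathione, rose by 0.83. MTHFD2, a mitochondrial folate enzyme and the 1 lower gene, named after its values were seen, changed by -0.64. NUPR1 did not pass the filter. With ASO2 ATF4 read 8239, 7816 and 8171 and ASNS 3296, 3089 and 3371, also above the controls. GDF15 read 203, 199 and 174 with ASO2, below its controls. The list as a whole was not counted for ASO2.

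The known binding element of this arm, a C/EBP and ATF composite site, was searched as TGATGNAAN on both strands, without regard to overlap with other motifs. The search covered the 250 bases before the first listed RefSeq start of each gene symbol (GRCh38.p14), and further starts of a gene were not searched. The element was found in 3 of the 18 list promoters matched by symbol (16.7%), against 137 of 10111 promoters of tested genes (1.35%) and 867 of all 27305 (3.18%). The list holds known genes of this arm, so its share describes the list and not the effect of ASO10. Among list members higher with ASO10 it was 3 of 17 (17.6%). A match is a description and not a site. The 3 promoters are shown because their genes are targets that rose, 5′ to 3′ on the strand of the gene, with the match in capitals (in CHAC1 it lies on the opposite strand). They cover chr7:97872409-97872658, minus strand for ASNS, chr1:212565157-212565406, plus strand for ATF3, a stress-induced transcription factor, and chr15:40953221-40953470, plus strand for CHAC1.
ASNS: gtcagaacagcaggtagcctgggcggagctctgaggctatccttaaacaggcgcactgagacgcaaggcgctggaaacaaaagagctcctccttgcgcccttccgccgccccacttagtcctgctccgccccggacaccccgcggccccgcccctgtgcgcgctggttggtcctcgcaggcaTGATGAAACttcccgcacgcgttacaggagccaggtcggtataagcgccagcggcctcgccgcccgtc
ATF3: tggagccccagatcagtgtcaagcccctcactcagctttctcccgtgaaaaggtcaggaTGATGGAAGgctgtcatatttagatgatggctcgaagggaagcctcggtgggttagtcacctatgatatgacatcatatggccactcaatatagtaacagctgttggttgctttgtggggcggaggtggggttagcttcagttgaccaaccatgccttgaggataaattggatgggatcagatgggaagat
CHAC1: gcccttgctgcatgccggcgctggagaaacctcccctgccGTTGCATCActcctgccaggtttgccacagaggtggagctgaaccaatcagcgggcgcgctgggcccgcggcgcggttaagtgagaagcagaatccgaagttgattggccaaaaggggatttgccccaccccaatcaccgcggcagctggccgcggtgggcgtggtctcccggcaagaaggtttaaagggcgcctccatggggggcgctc

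Other stress programmes moved less or split. The SK-N-BE(2)c counts of these and the following lists stand beside 25.9% higher and 32.1% lower over all tested genes outside the near-0 class. Of 17 tested AP-1 and immediate early genes 10 were higher and 2 lower (median 0.42). FOS, a subunit of AP-1, had 88.9, 80.7 and 44.3 with NCA and 154, 230.1 and 140.2 with ASO10 (log2 fold change 1.31, limma adjusted p 8.35e-07), whereas FOSL2 of the same family changed by -0.57. The ER unfolded protein response, which raises chaperones and degradation factors, had 8 of 21 genes higher and 6 lower with a median of 0.01, which became -0.02 with every library rescaled to the same total. Its sensor ERN1 rose from 215, 199 and 194 to 317, 444 and 455 (0.98, limma adjusted p 2.57e-08), and its transcription factor XBP1 by 0.67. Heat shock genes had 1 of 14 higher and 3 lower (median -0.05), which became 2 and 2 with DESeq2. HSPA1A, the 1 higher gene (0.26, limma adjusted p 0.0497), lost its call with every library rescaled to the same total (0.23), and its sequence is nearly that of HSPA1B. Of 17 tested NRF2 antioxidant genes 1, OSGIN1, was near 0 with NCA and could only be higher. Of the other 16, 5 were higher and 5 lower (median -0.01), which became 3 and 6 with every library rescaled to the same total and 7 and 4 with edgeR. Of these HMOX1, the inducible heme oxygenase, went from 215, 211 and 173 to 453, 493 and 429 (1.20, limma adjusted p 4.85e-10). NQO1, a quinone reductase, fell from 989, 1084 and 1124 to 586, 568 and 533 (-0.92, limma adjusted p 5.11e-12).

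**Figure D4:**
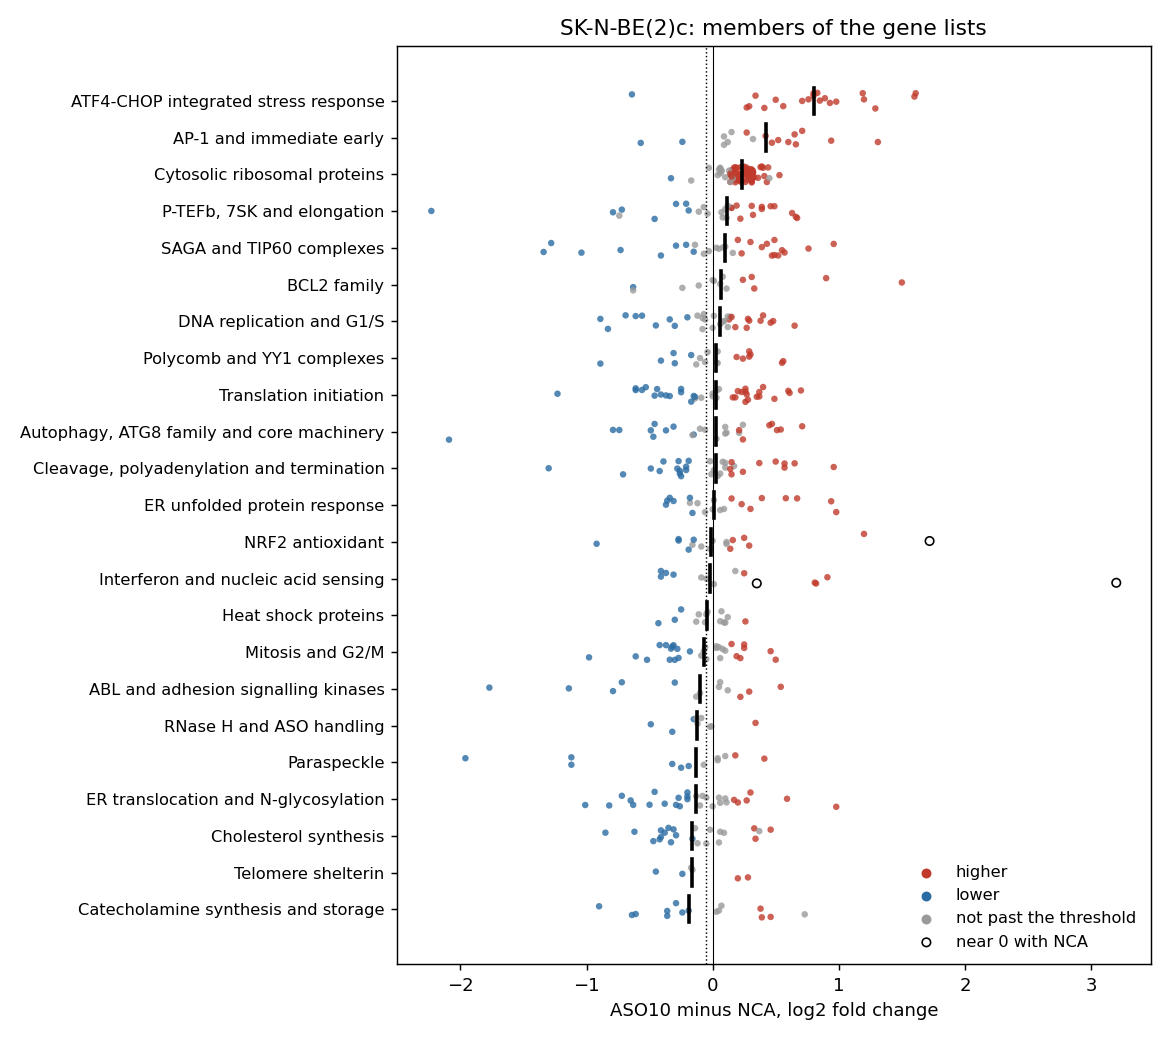
Log2 fold changes of ASO10 minus NCA are shown for every tested member of the 23 gene lists, one point per gene, red where higher, blue where lower and grey where the limma adjusted p was 0.05 or more, with open circles for near-0 genes, a black bar at each list's median and a dotted line at the median of all genes (-0.05), both without near-0 genes. The ATF4-CHOP list lies to the right with a median of 0.80, the ribosomal proteins form a narrow cluster at 0.23, and most other lists hold members on both sides of 0.

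Ribosomal protein genes and initiation factor genes are given apart. Of 74 tested cytosolic ribosomal protein genes 57 were higher and 1 lower, RPL9 at -0.33 (named after its values were seen), and the median log2 fold change was small at 0.23. RPL13A, among the 4 largest of these changes, had 9249, 9455 and 9633 with NCA and 11988, 12981 and 12823 with ASO10 (0.41, limma adjusted p 1.66e-08), without overlap. Ribosomal protein genes have many processed pseudogenes, and how the counting divided their reads is not stated. Initiation factor genes were split, with 17 of 39 higher and 15 lower (median 0.03). EIF4G2, an eIF4G relative that lacks the cap-binding part, fell from 15743, 16253 and 17138 to 7619, 6361 and 6945 (-1.23, limma adjusted p 2.49e-16). EIF4G1, the scaffold of cap-dependent initiation, rose from 9847, 8789 and 9586 to 14761, 15932 and 15111 (0.70, limma adjusted p 1.79e-12). The controls of each gene lay outside the range of ASO10.

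Transcription and RNA processing genes held single members with large falls inside lists that moved in both directions. Among 29 P-TEFb and elongation genes 12 were higher and 7 lower (median 0.11). Beside CCNT1, the elongation factor RTF1 fell by 0.79 and AFF1, a scaffold of the super elongation complex, by 0.72 on the log2 scale. CDK9, the kinase partner, had 764, 667 and 622 with NCA and 774, 760 and 736 with ASO10 (0.15, limma adjusted p 0.0934), and SUPT6H rose by 0.67. Among 32 genes of cleavage, polyadenylation and termination 10 were higher and 13 lower (median 0.03). NUDT21, the CFIm subunit that steers the choice of poly(A) site, fell from 2511, 2549.8 and 2639 to 1224, 894 and 1038 (-1.30, limma adjusted p 1.66e-14). RPRD2, which binds the tail of RNA polymerase II, rose from 1708, 1714 and 1678 to 3118, 3519 and 3279.5 (0.96, limma adjusted p 7.82e-14) and stood at 808, 797 and 795 with ASO2, below the controls.

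Lists of nuclear complexes also had members in both directions. Of the 12 genes of the paraspeckle list, which also takes in the nuclear speckle RNA MALAT1, 2 were higher and 6 lower (median -0.13). MALAT1, a nuclear long non-coding RNA, fell from 1194, 1369 and 1397 to 654, 600.4 and 561 (-1.12, limma adjusted p 2.92e-13), and the RNA-binding protein gene DAZAP1 by the same amount, whereas NONO, a core paraspeckle protein, rose by 0.41. Of 29 SAGA and TIP60 genes 13 were higher and 8 lower (median 0.10). TRRAP, the scaffold that both acetyltransferase complexes share, fell from 2757, 2587 and 2332 to 1161, 983 and 1018 (-1.28, limma adjusted p 2.37e-15), and SUPT20H of SAGA fell by 1.04 on the log2 scale. ING3 of TIP60 rose by 0.96. Polycomb genes had 7 of 19 higher and 5 lower (median 0.03), with JARID2 at -0.89 and the partner transcription factor YY1 at 0.55. Shelterin genes had 2 of 6 higher and 2 lower (median -0.17), within -0.45 to 0.28. TERF1 and TERF2IP, telomere proteins, stood at 78.5, 79.8 and 78 and at 442, 472 and 414 with ASO2, below all libraries of ASO10 and NCA.

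Autophagy genes other than MAP1LC3B moved by less. Of 25 tested genes 7 were higher and 9 lower (median 0.03, and 7 in each direction with DESeq2), and the relatives of LC3B were not called: GABARAPL2 had 738, 754 and 853 with NCA and 734, 744 and 705 with ASO10, and MAP1LC3A, GABARAP and GABARAPL1 were low with log2 fold changes from 0.03 to 0.24. SQSTM1, the cargo receptor p62, rose from 2658, 2279.6 and 2335 to 3707, 4276 and 3932 (0.71, limma adjusted p 1.53e-10). RB1CC1, a scaffold of the initiating kinase complex, fell by 0.79 on the log2 scale. At the ER membrane, 6 of 29 translocation and glycosylation genes were higher and 14 lower (median -0.13). SEC61A1, the main channel subunit, fell from 6117, 6056 and 5960 to 3206, 2874 and 2946 (-1.01, limma adjusted p 1.77e-15). Its paralog SEC61A2 rose from 119, 115 and 111 to 203, 225 and 259 (0.98, limma adjusted p 6.52e-08). Neither paralog had overlapping groups.

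The list of ABL and adhesion signalling genes, which holds kinases and their adaptor and scaffold proteins, had 3 higher and 5 lower of 13 (median -0.10). Over all tested genes outside the near-0 class 25.9% were higher and 32.1% lower. ABL2 fell from 1112, 1121 and 1098 to 385, 283 and 312 (-1.77, limma adjusted p 1.56e-15), and its paralog ABL1 from 2418, 2334 and 2059 to 1388, 1341 and 1398 (-0.72, limma adjusted p 2.4e-11). With ASO2 they differed in direction, at 444, 467 and 471 for ABL2 and 4745, 4678 and 4607 for ABL1. The kinases FYN and PTK2 fell by 1.14 and 0.79 on the log2 scale. In the BCL2 family, which sets the threshold of apoptosis, 5 of 14 were higher and 1 lower (median 0.07). BBC3, the BH3-only protein PUMA, rose from 154, 141 and 109 to 349, 445 and 354 (1.50, limma adjusted p 5.19e-11), and BCL2, the survival member, fell from 322, 296 and 336 to 229.7, 195 and 194 (-0.63, limma adjusted p 1.85e-05).

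Several adrenergic identity genes fell by modest amounts. Of 12 tested adrenergic markers 7 were lower and the other 5 did not pass the test, with a median of -0.21. Over all tested genes outside the near-0 class 32.1% were lower and 25.9% higher. The summed markers were at 35097 to 39454 with NCA and at 30995 to 32115 with ASO10. HAND2 had 6001, 5717 and 6021 with NCA and 4118, 3834 and 3917 with ASO10 (-0.58, limma adjusted p 1.09e-10), and PHOX2A fell by 0.52 on the log2 scale. The ASO10 libraries of both genes lay below the controls. GATA2 (-0.02) and GATA3 (-0.04) did not pass the test. With ASO2 HAND2 read 4528, 4843 and 4537 and PHOX2A 2476, 2496 and 2137, also below the controls. ISL1, another adrenergic marker, read 1001, 974 and 954 with ASO2, above its 677, 629 and 673 with NCA. Of 15 catecholamine genes 8 were lower and 3 higher (median -0.19). SLC18A2, the vesicular monoamine transporter, changed by -0.90, the decarboxylase gene DDC by -0.64 and the noradrenaline transporter gene SLC6A2 by -0.61. VGF, a secreted neuropeptide precursor, rose by 0.46. Of 5 tested mesenchymal markers 1 was higher and 2 were lower (median -0.45). VIM rose from 2675, 2575 and 2529 to 3368, 3619.9 and 3419.7 (0.42, limma adjusted p 6.35e-08), and TWIST1 and FOSL2 fell by 0.46 and 0.57 on the log2 scale. PRRX1, FN1, YAP1 and COL1A1 did not pass the filter.

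Cell cycle lists were mixed, beside 25.9% higher and 32.1% lower over all tested genes outside the near-0 class. Of 33 replication and G1/S genes 11 were higher and 9 lower (median 0.06), which became 9 and 9 with every library rescaled to the same total. RRM2, the ribonucleotide reductase subunit, fell from 3712, 3465 and 3824 to 2251, 1840.1 and 2103 (-0.83, limma adjusted p 4.67e-12), and CDT1, which loads the replicative helicase, rose by 0.65. Of 30 mitotic genes 7 were higher and 13 lower (median -0.07). BUB1, a checkpoint kinase, changed by -0.98, and ESPL1, which encodes separase, by 0.50. Genes of nucleic acid sensing and the interferon response had 14 tested members, of which OAS2 and IFIT3 were near 0 with NCA. Of the other 12, 4 were higher and 4 lower (median -0.02), which became 3 and 4 with every library rescaled to the same total. OAS2 had 7.32, 3.02 and 5.78 with NCA and 46.5, 74.7 and 48.2 with ASO10. IRF9, IRF7 and IRF1, transcription factors of this response, rose by 0.91, 0.82 and 0.81, whereas TLR3, RIGI, IFIH1, IFIT1, ISG15, MX1 and IFNB1 did not pass the filter. Of 9 genes of RNase H and ASO handling (median -0.12) RNASEH1, the nuclease that ASOs recruit, was the 1 higher gene (0.34, limma adjusted p 0.000117), and 3 were lower, among them the exonuclease gene XRN2 at -0.49.

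The ASO10 effect was then set beside that in NGP, whose libraries are separate. Over 12754 genes tested in both lines, Pearson's r of the log2 fold changes was 0.832 and Spearman's rho 0.753, and 77.9% had the same sign, given as descriptions across genes. Without the near-0 genes these were 0.775, 0.736 and 77.3% over 12345 genes. Both lines called 5055 genes in the same direction, which was 65.9% of the SK-N-BE(2)c calls and 70.9% of the NGP calls, and 215 in opposite directions. All 24 largest rises and falls were called in NGP with the same sign, at 0.76 to 2.84 for the rises and -2.51 to -0.90 for the falls. CCNT1, for example, fell by 1.97 in NGP and MAP1LC3B by 1.86 on the log2 scale. The direct test of the difference between the lines called 2433 genes (19.1%), 1182 more positive in SK-N-BE(2)c (9.27%) and 1251 more negative (9.81%). With edgeR the split was 1731 and 1080, and without ASO10 replicate 2 of SK-N-BE(2)c limma called 1664.

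CDKN1A and RRM2B were among the genes whose response differed between the lines. CDKN1A, the cell cycle inhibitor p21, had 47.1, 53.4 and 46.3 with NCA and 64.2, 73.6 and 55.1 with ASO10 in SK-N-BE(2)c, while its means in NGP were 2311 and 7085 (difference of log2 fold changes -1.24, limma adjusted p 6.06e-07). RRM2B, a ribonucleotide reductase subunit, fell from 209, 241 and 258 to 176, 146 and 138 in SK-N-BE(2)c and rose by 0.90 in NGP (difference -1.52, limma adjusted p 1.09e-07). BBC3 rose in both lines (1.50 and 1.26), as did SESN2, a stress-induced sestrin of the ATF4-CHOP list (0.98 and 1.02), and POLH, a translesion polymerase (1.27 and 2.69, difference -1.42).

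Cholesterol synthesis was a list that differed between the lines. In NGP, where 54.4% of all genes were called, 27.1% higher and 27.3% lower, 17 of 23 genes were higher and the other 6 were not called (median 0.54), and in SK-N-BE(2)c 3 were higher and 12 lower (median -0.16). The difference was more negative in SK-N-BE(2)c for 16 of 23, beside 9.81% of all genes, and more positive for 1, HSD17B7, named after its values were seen. HMGCS1, which makes HMG-CoA, fell from 2067, 2056 and 2251 to 1760.4, 1323 and 1537 in SK-N-BE(2)c, and its means in NGP were 3212 with NCA and 5668 with ASO10 (difference -1.29, limma adjusted p 2.84e-10). MSMO1, a sterol demethylating oxidase, fell from 523, 449 and 544 to 347, 207 and 301 and rose by 0.70 in NGP (difference -1.56, limma adjusted p 1.09e-07). In both genes ASO10 replicate 2 was the lowest library. The ATF4-CHOP list did not divide by direction in this way, with 20 of 21 higher in each line. The size of the change still differed for some members. The difference was called more positive in SK-N-BE(2)c for 5 of 21 and more negative for 4, beside 9.27% and 9.81% of all genes. PPP1R15A, for example, had a difference of 0.88 and ATF3 of -0.78.

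**Figure D5:**
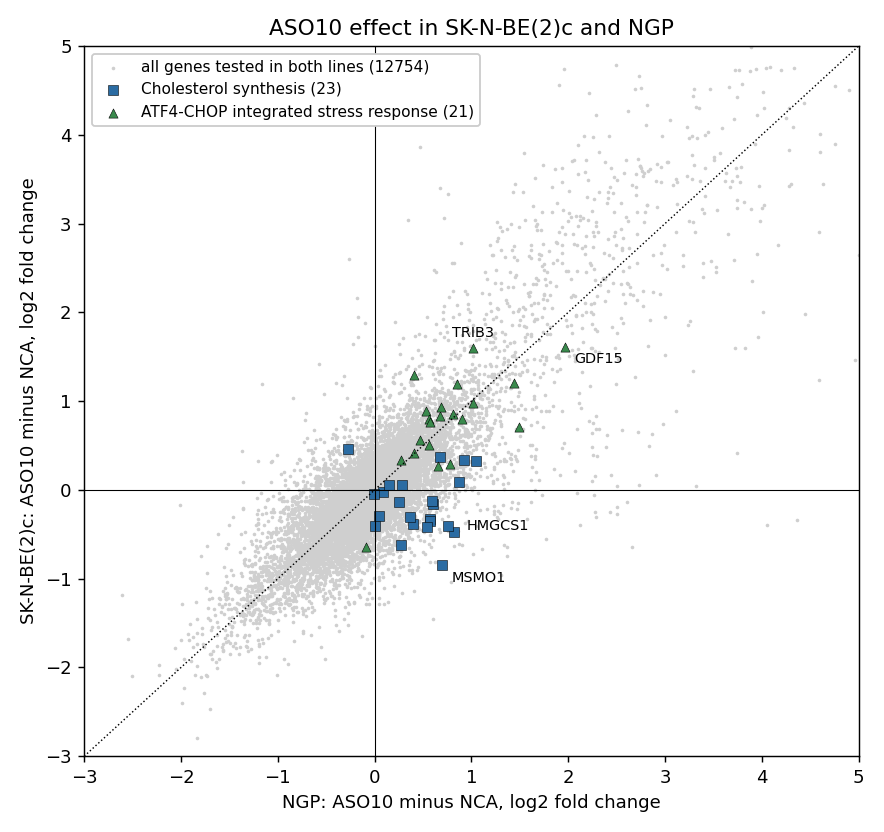
The log2 fold change of ASO10 minus NCA in NGP (horizontal axis) is plotted against that in SK-N-BE(2)c (vertical axis) for the 12754 genes tested in both, with the ATF4-CHOP and cholesterol lists marked and a dotted line of equal change. The axes leave out 15 genes. Most cholesterol genes lie right of 0 and below the dotted line, as HMGCS1 at 0.82 and -0.47 does, while ATF4-CHOP genes lie on both sides of it.

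Replication genes leaned the other way between the lines. In NGP 3 of 33 were higher and 17 lower, beside 27.1% and 27.3% of all genes. The difference was more positive in SK-N-BE(2)c for 10 of 33 and more negative for 1, beside 9.27% and 9.81% of all genes. Over all genes edgeR called 1731 more positive and 1080 more negative, and the split of this list was not recomputed with it. Among genes of at least 100 in the NCA libraries of both lines, the largest negative difference was in RGS16, which shortens G protein signals. It fell from 2548, 2434 and 2569 to 2105, 2045 and 1874 in SK-N-BE(2)c and rose from a mean of 219 to 646 in NGP (difference -1.90, limma adjusted p 1.78e-12). PHLDA1 rose in both lines, by 0.75 and 2.26, and IKBIP had -0.63 and 0.82. The largest positive difference was in EPHX1, the microsomal epoxide hydrolase, which rose from 154, 135 and 128 to 294, 333 and 312 in SK-N-BE(2)c and had means of 101 and 103 in NGP (difference 1.14, limma adjusted p 1.41e-05). ARHGEF2, a microtubule-associated activator of RHOA, rose in both lines, by 1.52 and 0.48 (difference 1.04, limma adjusted p 8.4e-08). CLIP1, a microtubule plus-end protein, had 0.20 in SK-N-BE(2)c, a call lost with every library rescaled to the same total (0.17), and fell by 0.94 in NGP.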

How the data were processed

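RNA was measured in 3 libraries per group used here. IMR32 received no ASO10 and was left out. Per the submitters' processing notes the authors used FastQC 0.11.8, cutadapt 1.18, STAR 2.6.0, HTSeq 0.6.1 and DESeq2 1.42.0 with builds hg19 and GRCh37; the roles and settings are not given in the sources used here. The labels' protocols name a stranded total RNA kit and a stranded mRNA kit without saying which library had which. The deposited values are a signal, gene counts that the authors had divided by a size factor per library, and 100% of values above 0 came out within 0.01 of a whole read after division by each library's step. In NCA replicate 2 that step was 1.0082, so near 1 that the deposited values resemble whole reads; 14.2% of them lay within 0.01 of a whole number before division.

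Differences were tested with limma 3.58.1 (R 4.3.3) on log2(value + 1) with a mean-variance trend, over the 9 SK-N-BE(2)c libraries for ASO contrasts and with NGP for the difference between lines, without a replicate block. A mean of at least 10 was required, and Benjamini-Hochberg adjustment ran over all genes tested. The filter on 6 libraries was tested against others, since it fixes the direction of genes near 0 in the controls. edgeR 4.0.16 and DESeq2 1.42.0 on recovered reads were alternatives, and edgeR called 8171 genes. Further alternatives were other pseudocounts, filters and scalings, no trend, a fold threshold, a replicate block and each library left out. Recovered reads of 11905897 to 14758934 per library set the precision of low genes.

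On simulated data the test called 53 of 67 genes changed 1.5-fold, 66 of 67 changed 2-fold and 66 of 66 changed 4-fold, with 9 false calls among 13534 genes. The simulation changed only these genes, gave every gene the same spread beyond counting noise and scaled libraries by their true size factors. In the real data most genes were called, so these rates need not hold there. Replicates differed by 2.43 to 5.36 times counting noise alone, which does not show that they came from separate cultures. Symbols covered 68.3% of the genes in the table and 94% of those tested, and GENCODE release 29 held 97.7% of the latter.

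The members and lists were chosen with earlier results of these data known. Named genes were, among well expressed genes, the 12 largest rises and falls called without overlap; the 10 near-0 genes with the highest ASO10 mean; the 5 largest differences between lines in each direction among called genes of at least 100 in both controls; up to 4 called members per list with the largest change; and genes named after their values were seen. Promoters came from RefSeq (GRCh38.p14), a later build than that of the files, and gene order, strand and span from GENCODE. Some genes and 1 gene list are not reported here.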

Additional observations from a re-analysis of the deposited data

Results flagged for a closer look

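In 17 of the named genes outside the near-0 class the ASO10 effect differed between SK-N-BE(2)c and NGP by a log2 value of at least 1 in size, by limma's test of the difference itself, with p-values adjusted over all genes tested in both lines. Near-0 genes were left out because they were chosen by their SK-N-BE(2)c values. EPHX1, CLIP1, AP1G2, ARHGEF2, SPEG, RGS16, MSMO1, RRM2B, PHLDA1 and IKBIP had been named for the largest values of this same difference. That they are listed here was therefore fixed in advance, and the count of 17 is no result about the named genes. Over all 12754 genes tested in both lines 302 were called with a difference of that size. Differences are given as SK-N-BE(2)c minus NGP, followed by the log2 fold change in each line. RGS16 had -1.90 (-0.33 and 1.57), MSMO1 -1.56 (-0.85 and 0.70), RRM2B -1.52 (-0.62 and 0.90) and IKBIP -1.45 (-0.63 and 0.82), and these 4 genes moved in opposite directions in the lines. HMGCS1 had -1.29 (-0.47 and 0.82), also in opposite directions. PHLDA1 had -1.51 (0.75 and 2.26) and POLH -1.42 (1.27 and 2.69), both higher with ASO10 in both lines and more so in NGP. CDKN1A had -1.24 (0.38 and 1.62), not called in SK-N-BE(2)c. NEAT1 had -1.07 (-1.96 and -0.90), lower in both and more so in SK-N-BE(2)c.

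Among positive differences, AOC2, named after its values in SK-N-BE(2)c were seen, had 1.83 (3.99 and 2.16). HMOX1 had 1.60 (1.20 and -0.40, limma adjusted p 0.000623), with NGP means of 17.2 and 12.1 normalized counts, a level at which few reads decide the value. EPHX1 had 1.14 (1.17 and 0.03), ARHGEF2 1.04 (1.52 and 0.48) and CLIP1 1.13 (0.20 and -0.94). AP1G2, an adaptor subunit of vesicle coats, had 1.06 (0.78 and -0.29), and SPEG, a muscle-type kinase, had 1.02 (0.71 and -0.31). ATG10, an autophagy enzyme, had 1.04 (-0.74 and -1.79, limma adjusted p 0.0472), lower in both lines. Without SK-N-BE(2)c NCA replicate 2 its own change in SK-N-BE(2)c was -0.57 and no longer called.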

How the results depend on the processing

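Of 183 recomputed counts of calls 173 stayed within 1.5 times the reported count. With a log2 fold change of 1 or more in size also required, the counts were 1540 genes for ASO10 against NCA (907 higher, of which 116 were well expressed and 423 near 0, and 633 lower, of which 406 were well expressed and 0 near 0, where the filter allows no fall), 1980 against ASO2 (1446 and 534) and 302 for the difference between lines (138 and 164). Leaving out SK-N-BE(2)c ASO10 replicate 2 brought the genes with a more positive effect in SK-N-BE(2)c to 781. Leaving out 1 library at a time gave 7096 to 7726 calls against NCA (3334 to 3706 higher, 3762 to 4075 lower), 8279 to 8545 against ASO2 (3940 to 4140 and 4331 to 4479) and 1664 to 3210 between lines (781 to 1576 and 883 to 1634). With near-0 genes counted, higher calls outnumbered lower ones against NCA with edgeR, DESeq2, a mean of at least 1 (4695 and 4282) and no filter (4716 and 4093), and the reverse held with equal totals (3599 and 4467) and a filter on the NCA mean alone (3396 and 4266). With the replicate block 8219 genes were called against NCA, 9081 against ASO2 and 2665 between lines. Same-numbered ASO10 and NCA libraries of SK-N-BE(2)c had correlations of their deviations of -0.0113, 0.062 and 0.0136. These show no pairing by number in this line, but with 3 libraries per group they cannot exclude one. Of 3154 recomputed values of 177 named genes, 85 in 18 genes lost the call and 11 in 7 genes gained it. No called gene changed sign, and 14 values in 7 genes that were not called did. The cause was not tested. Genes near 1 read per library are limited by depth.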
